A study of Mus musculus with 23 samples.

Results

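The insulin-like growth factor (IGF) system of the mouse sciatic nerve (SN) was followed through 8 genes, the ligand Igf1, its receptor Igf1r and the binding proteins Igfbp2, Igfbp3, Igfbp4, Igfbp5, Igfbp6 and Igfbp7. The genes were chosen by symbol, and all 8 were listed among the 43068 genes of the crush libraries and the 22880 genes of the inducible knockout (iKO) libraries. Transcript counts were summed per gene, and each gene is described in all 23 libraries of the 7 groups.

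The study compared nerve injury with loss of microRNA (miRNA) processing in adult Schwann cells (SCs). In the injury experiment, wild-type C57BL/6J male mice 2 months old had one SN crushed, and a 7 mm piece distal to the lesion was taken at 3 days post crush (3 dpc, n = 4), together with the uninjured nerve of the other side (contralateral, n = 4) and nerves of surgery controls without a crush (uncrushed, n = 3). In the iKO experiment, mice backcrossed to C57BL/6J and homozygous for floxed Dicer1 or floxed Dgcr8 carried a transgenic tamoxifen-inducible Cre that is active in myelinating SCs (Dicer iKO and Dgcr8 iKO, n = 3 each). Their controls (n = 3 each) had the same floxed alleles without Cre, all 4 groups received tamoxifen at 8 to 10 weeks of age, and nerves were taken at 3 months post tamoxifen (mpT). According to the study, not every iKO mouse showed morphological changes and the mutants analysed were chosen for their morphology, so the iKO groups are not a random sample of iKO mice. Recombination was thus restricted to a part of the cells of a tissue that was sequenced whole, and in such bulk libraries fewer cells of a type and less RNA per cell cannot be told apart.

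IGF1 is a secreted growth factor that signals through the receptor tyrosine kinase IGF1R to the PI3K-AKT-mTOR and RAS-ERK branches, and in peripheral nerve it is known to act on SC survival and myelination and on axon growth. IGFBP2 to IGFBP6 bind IGFs with high affinity, hold them in the extracellular space and release them when they are cleaved by proteases, while IGFBP7 binds IGFs weakly. Dicer cuts miRNA precursors into mature miRNAs, and Dgcr8 is the RNA-binding partner of Drosha in the preceding nuclear step.

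Because both iKO lines remove miRNA processing, seeds of nerve miRNAs and their matches in these transcripts are given first. The search covered miR-181a-5p, miR-10a-5p, miR-10b-5p, miR-30a-5p, miR-27b-3p, miR-26a-5p and miR-22-3p. All of them are named in the study, most as abundant in SNs, and other miRNAs are not reported here. RefSeq mature sequences (GRCm38.p6) of those with a match in the ligand or receptor are printed with the seed, bases 2 to 8, in capitals.
miR-26a-5p: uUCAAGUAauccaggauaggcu
miR-181a-5p: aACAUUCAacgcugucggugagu
miR-10a-5p: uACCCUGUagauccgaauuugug
miR-10b-5p: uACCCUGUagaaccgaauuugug
miR-30a-5p: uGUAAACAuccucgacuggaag
The perfect complement of each seed was searched on the transcript strand of the longest annotated 3′UTR of each gene (GENCODE M21, GRCm38), as TACTTGA for miR-26a-5p, TGAATGT for miR-181a-5p, ACAGGGT for miR-10a-5p and miR-10b-5p, which share their seed, TGTTTAC for miR-30a-5p, GGCAGCT for miR-22-3p and ACTGTGA for miR-27b-3p. The Igf1 3′UTR (6308 bases) held 2 matches to the miR-26a-5p seed and 1 to that of miR-181a-5p, and 37.7% and 57.3% of the 571 other 3′UTRs within 20% of its length also held a match. The Igf1r 3′UTR (7267 bases) held 1 match to the seed of miR-10a-5p and miR-10b-5p and 1 to that of miR-30a-5p, beside 44.7% and 53.2% of 374 others. The Igfbp5 3′UTR (4445 bases) held 1 match to that of miR-22-3p, beside 30.8% of 1269 others. No match to these seeds was found in the annotated 3′UTRs of Igfbp2, Igfbp3, Igfbp4, Igfbp6 and Igfbp7, and miR-27b-3p had no match in any of the 8 genes. These matches describe letters in a sequence and do not show binding.

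The libraries held 6617716 to 12806066 counts in the crush experiment and 5594859 to 10143244 in the iKO experiment. The experiments were made with different kits, so levels, given as CPM (counts scaled to a common library total by TMM), are compared within an experiment. Neither floxed gene passed the test in its line. Dicer1 was at 81.0 to 82.8 CPM in Dicer iKO and 88.0 to 91.0 CPM in the controls (log2 fold change -0.11, adjusted p = 0.357), lower in each iKO library than in any control. Dgcr8 was at 39.3 to 53.7 CPM in Dgcr8 iKO and 34.8 to 41.9 CPM in the controls (0.22, adjusted p = 0.233), which overlap. The counts cover all exons, and cells without Cre also express both genes, so these values do not check the labels. According to the study, real-time PCR showed less mRNA of the floxed gene in nerves of each iKO line than in its controls. The study also reports less of an abundant miRNA in both lines. The tissue carried SC markers in every library. The library Dicer control 3 stood apart from the other Dicer controls, with 6147 CPM for 6 summed fibroblast markers against 13479 and 17567 CPM. The Dgcr8 controls lay in between, at 8154 to 10512 CPM. For the summed SC markers, Dicer control 3 (47995 CPM) was nearer to the Dgcr8 controls (43650 to 47191 CPM) than Dicer control 1 (28874 CPM) and Dicer control 2 (37679 CPM) were. Which Dicer control is typical was not tested. The Dicer comparisons of the 8 genes are also given without Dicer control 3, which does not make those values the better ones.

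Other cell types moved with the groups. The 12 macrophage markers summed to 224 to 242 CPM in uncrushed, 168 to 268 CPM in contralateral and 1021 to 2177 CPM in crushed nerves, and all 12 rose at 3 dpc against both controls. In Dicer iKO 8 of the 12 rose (4006 to 6999 CPM against 493 to 1195 CPM), or 10 without Dicer control 3, and in Dgcr8 iKO 9 of the 12 rose (2650 to 6090 CPM against 473 to 533 CPM). The 6 fibroblast markers went in opposite directions in the experiments. In crushed nerves 4 fell and none rose against either control (3758 to 4426 CPM, against 5341 to 6101 CPM uncrushed and 5014 to 6336 CPM contralateral), whereas 4 rose in Dicer iKO (23914 to 24927 CPM against 6147 to 17567 CPM) and 5 in Dgcr8 iKO (18639 to 22268 CPM against 8154 to 10512 CPM). Of 10 SC markers, 9 fell against uncrushed and all 10 against contralateral nerves, 2 fell in Dicer iKO, and 6 fell and 1 rose in Dgcr8 iKO, while the 4 proliferation markers rose in each of these 4 comparisons. Over all genes tested, 33.8% were higher and 33.4% lower against uncrushed, and 33.5% and 32.9% against contralateral nerves. These shares were 12.3% and 8.88% in Dicer iKO, and 23.9% and 20.6% in Dgcr8 iKO. None of the markers of macrophages, fibroblasts or SCs was at 0 in any group. The part of these shifts in the results on the IGF genes was not tested.

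At 3 dpc, 6 of the 8 IGF genes rose and 2 fell, against uncrushed and against contralateral nerves alike. Igf1 and the binding proteins Igfbp2, Igfbp3, Igfbp4, Igfbp5 and Igfbp7 were higher in crushed nerves, and Igf1r and Igfbp6 were lower. Crush changed most of the transcriptome, with 33.8% of 17433 tested genes higher and 33.4% lower against uncrushed, and 33.5% of 16667 higher and 32.9% lower against contralateral nerves (edgeR's quasi-likelihood test, Benjamini-Hochberg adjusted p at most 0.05). Both comparisons use the same crushed libraries. The median log2 fold change of the 8 genes was 1.60 and 1.85, beside -0.03 and -0.06 over all genes tested. These counts and medians include Igfbp2, which passed the filter on low counts through the crushed libraries (55 to 80 counts, against 4 to 8 in intact nerves).

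**Figure D1:**
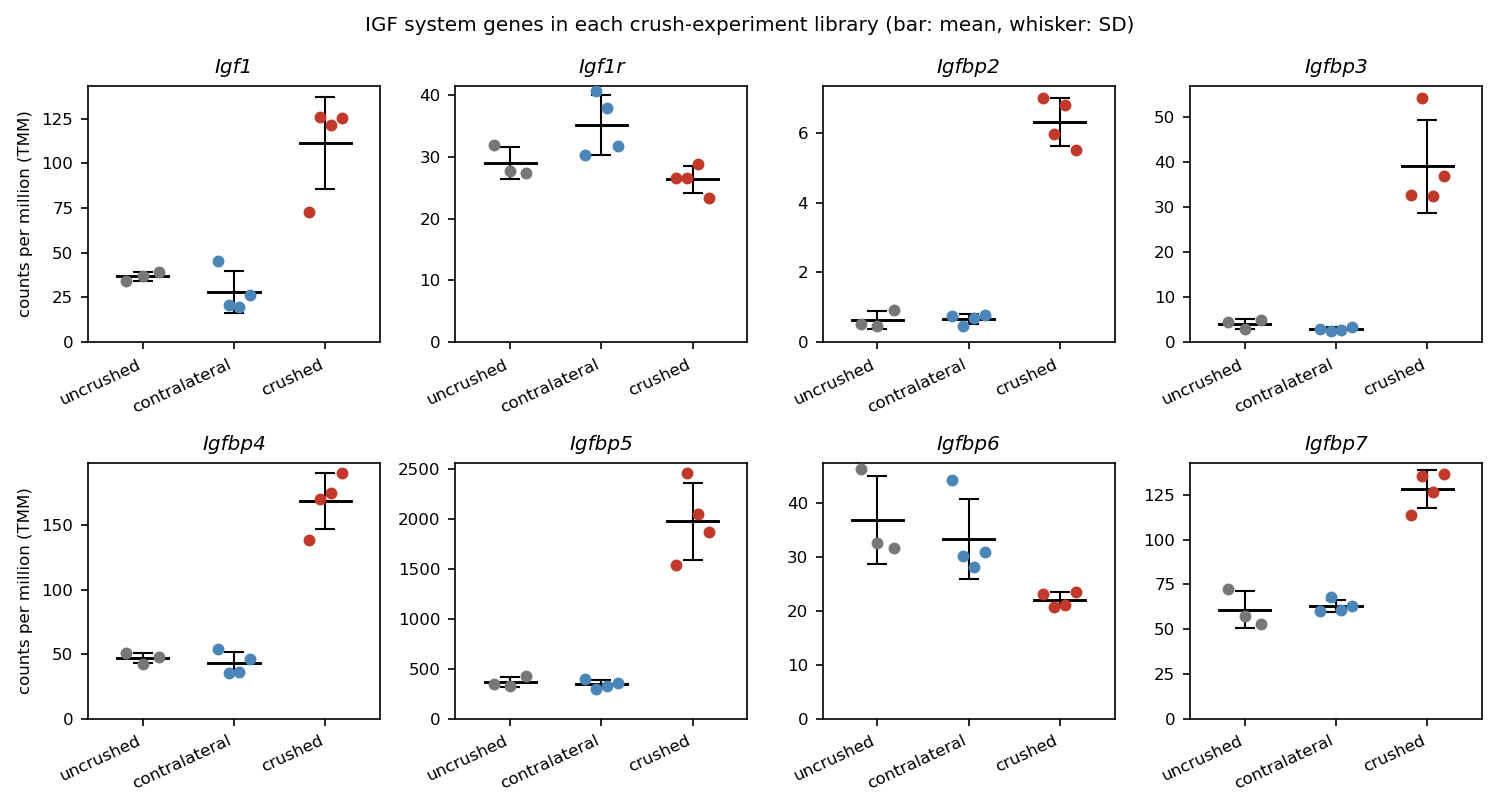
Level of each IGF system gene, in CPM scaled by TMM, in each library of the crush experiment. Points are single libraries, bars are group means and whiskers are SDs. Crushed libraries lay above both control groups for Igf1, Igfbp2, Igfbp3, Igfbp4, Igfbp5 and Igfbp7, and below both for Igfbp6.

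Igf1 (chr10:87858265-87937042, plus strand) is the only high-affinity IGF1R ligand of the set. It was at 34.3, 37.2 and 39.2 CPM in the uncrushed libraries, 45.4, 20.8, 19.7 and 26.1 CPM in the contralateral libraries, and 72.6, 126, 121 and 126 CPM in the crushed libraries. Every crushed library exceeded every control, although crushed 1 lay well below the other 3 crushed libraries. The means were 111 ± 25.9 CPM (SD, n = 4) crushed, 36.9 ± 2.5 CPM (n = 3) uncrushed and 28 ± 11.9 CPM (n = 4) contralateral. This was a 3.02-fold rise over uncrushed (log2 fold change 1.48, SE 0.18, adjusted p = 1.54e-05) and a 3.97-fold rise over contralateral (1.86, SE 0.23, adjusted p = 6.81e-06). Crushed 1 also differed from the other crushed libraries in summed markers. Those of macrophages (1021 CPM against 1684 to 2177 CPM) and fibroblasts (3758 CPM against 4307 to 4426 CPM) were lowest there. Those of SCs were highest there (3326 CPM against 2178 to 2805 CPM). A link of these sums to Igf1 was not tested.

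Igf1r (chr7:67952827-68233668, plus strand) went the other way from its ligand. Its levels were 32.0, 27.8 and 27.3 CPM uncrushed, 30.3, 40.6, 37.9 and 31.8 CPM contralateral, and 26.6, 26.5, 28.9 and 23.4 CPM crushed. Crushed and contralateral libraries did not overlap (log2 fold change -0.56, SE 0.10, adjusted p = 0.000284), but crushed and uncrushed libraries did. The fall against uncrushed was small (-0.27, SE 0.10, adjusted p = 0.0321). It missed the threshold in 4 of 7 fits that left out a library, without crushed 2 (adjusted p = 0.0517), crushed 4 (0.0597), uncrushed 1 (0.221, log2 fold change -0.15) or uncrushed 2 (0.0656). Its sign turned when log2(TPM + 1) values were fitted with limma (0.25, adjusted p = 0.197), a setting with a median of 0.24 over all genes. The deposited tables list the receptor transcript at 4489 bases, shorter than its 3′UTR in the newer annotation alone, so its counts and per-length levels cover part of the mRNA.

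Igfbp5 and Igfbp2 are neighbours on chromosome 1, their 3′ ends 5457 bases apart on opposite strands. Igfbp5 (chr1:72857932-72874884), a matrix-associated binding protein, was the most abundant of the 8 genes by counts. It was at 346, 332 and 423 CPM uncrushed, 394, 301, 329 and 359 CPM contralateral, and 1538, 2460.3, 2054 and 1867 CPM crushed, with no overlap. Its rise was 5.4-fold over uncrushed (log2 fold change 2.31, SE 0.17, adjusted p = 1.57e-07) and 5.73-fold over contralateral (2.38, SE 0.13, adjusted p = 8.15e-10).

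Igfbp2 (chr1:72824503-72852474), which can bind the extracellular matrix and integrins as well as IGFs, was close to the detection limit in intact nerves. It had 0.513, 0.471 and 0.916 CPM uncrushed, 0.735, 0.467, 0.685 and 0.788 CPM contralateral, and 7.0, 5.96, 6.79 and 5.52 CPM crushed. The intact libraries held 4 to 8 counts each and the crushed libraries 55 to 80, so it passed the filter on low counts through the crushed libraries. Summed counts per summed library total, without TMM, were 10.6-fold higher in crushed than in uncrushed nerves (95% exact interval 6.40 to 18.8, counting error only). All 16 uncrushed counts were assigned to a retained-intron transcript, whereas 5.12% of the crushed counts were. The fitted log2 fold changes were 3.25 (SE 0.28, adjusted p = 8.03e-07) and 3.10 (SE 0.22, adjusted p = 1.46e-08) against uncrushed and contralateral.

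Igfbp3 (chr11:7206086-7213923, minus strand), the main carrier of IGFs in serum, showed the steepest rise among the well-counted genes. It was at 4.36, 2.82 and 4.88 CPM uncrushed, 2.85, 2.41, 2.64 and 3.45 CPM contralateral, and 32.6, 54.4, 32.5 and 36.9 CPM crushed. The rise was 9.72-fold over uncrushed (log2 fold change 3.16, SE 0.23, adjusted p = 1.78e-07) and 13.8-fold over contralateral (3.65, SE 0.19, adjusted p = 4.33e-10). Igfbp1, its neighbour 3539 bases away, had at most 5 counts in any crush-experiment library and was not tested.

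Igfbp4 (chr11:99041244-99054392, plus strand) encodes a binding protein that is known mainly to inhibit IGF action and is cleaved by the protease PAPP-A. Its levels were 50.8, 42.5 and 47.6 CPM uncrushed, 53.8, 35.2, 36.0 and 46.3 CPM contralateral, and 138, 171, 175 and 191 CPM crushed. The crushed libraries were all above the controls, by 3.59-fold over uncrushed (log2 fold change 1.73, SE 0.13, adjusted p = 2.90e-07) and 3.94-fold over contralateral (1.85, SE 0.14, adjusted p = 2.85e-08).

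Igfbp7 (chr5:77349240-77408041, minus strand), a vessel-associated secreted protein, was at 72.5, 57.3 and 53.1 CPM uncrushed, 60.3, 68.0, 61 and 63.1 CPM contralateral, and 114, 136, 127 and 137 CPM crushed. Its rise was the smallest of the 6, at log2 fold changes of 0.95 (SE 0.12, adjusted p = 2.94e-05) and 0.89 (SE 0.09, adjusted p = 4.56e-07). Igfbp6 (chr15:102144362-102149511, plus strand), which prefers IGF2 to IGF1, was the only binding protein to fall. It was at 46.3, 32.6 and 31.8 CPM uncrushed, 44.4, 30.3, 28.1 and 30.9 CPM contralateral, and 23.1, 20.7, 21.2 and 23.5 CPM crushed. Uncrushed 1 and contralateral 1 were the highest of their groups, and no crushed library reached the controls. The log2 fold changes were -0.86 (SE 0.14, adjusted p = 0.000173) and -0.73 (SE 0.14, adjusted p = 0.000268). Both calls were lost with limma on log2(TPM + 1) (-0.01, adjusted p = 0.978, and -0.37, adjusted p = 0.059). In that setting the median over all genes was 0.24 against uncrushed and 0.07 against contralateral.

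Whether a distant lesion altered these genes in the intact nerve was addressed by contralateral against uncrushed nerves. None of the 7 genes tested passed, and Igfbp2 was too low to be tested. The log2 fold changes lay between -0.58 for Igfbp3 (SE 0.25, adjusted p = 0.260) and 0.19 for Igf1r (SE 0.11, adjusted p = 0.375). With edgeR, 0% of the 17722 genes tested passed in this comparison and 3165 (17.9%) had an unadjusted p under 0.05. DESeq2 called 18 genes higher and 232 lower but none of the 7. With 3 and 4 libraries, small differences may be missed.

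Loss of miRNA processing gave a related but not identical pattern in the 8 genes. In Dgcr8 iKO nerves Igf1, Igfbp2, Igfbp3, Igfbp4 and Igfbp7 rose, Igf1r and Igfbp5 fell, and Igfbp6 did not pass, where 23.9% of 13252 tested genes were higher and 20.6% lower. In Dicer iKO nerves Igf1 and Igfbp3 rose and Igf1r fell among the 7 genes tested, where 12.3% of 13045 tested genes were higher and 8.88% lower. The median log2 fold change was 1.47 over the 8 genes in Dgcr8 iKO and 0.28 over the 7 in Dicer iKO, beside -0.01 over all genes tested in each. The Dgcr8 values include Igfbp2, which passed the filter on low counts through the iKO libraries (45 to 74 counts, against 0 to 5 in the controls).

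**Figure D2:**
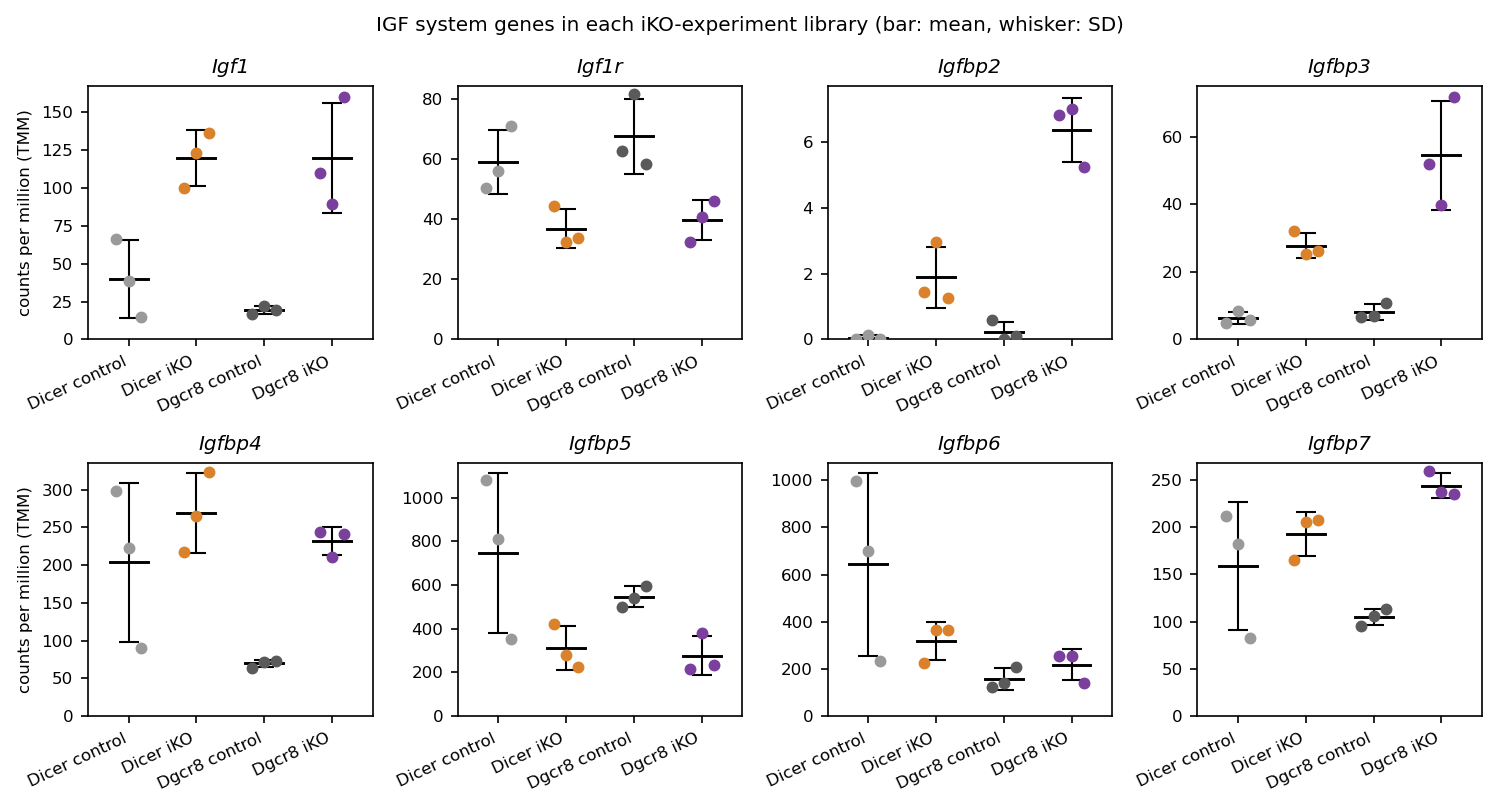
Level of each IGF system gene, in CPM scaled by TMM, in each library of the iKO experiment at 3 mpT. Points are single libraries, bars are group means and whiskers are SDs. Igf1 and Igfbp3 lay above the controls in every iKO library of both lines, and the Dicer controls were widely spread for Igfbp4, Igfbp5, Igfbp6 and Igfbp7.

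Igf1 reached a similar level in both lines. It was at 16.8, 22 and 19.4 CPM in the Dgcr8 controls and 109.6, 89.3 and 160.0 CPM in Dgcr8 iKO. It was at 66.2, 38.8 and 14.5 CPM in the Dicer controls and 99.8, 123 and 136 CPM in Dicer iKO. All iKO libraries exceeded their controls, but the Dicer controls differed among themselves by more than 4-fold, with Dicer control 3 the lowest. The rise was 6.16-fold in Dgcr8 iKO (log2 fold change 2.62, SE 0.21, adjusted p = 6.86e-06) and 3.00-fold in Dicer iKO (1.59, SE 0.45, adjusted p = 0.0415). The call in Dicer iKO was lost without Dicer control 2 or without any one of the Dicer iKO libraries, with adjusted p between 0.0616 and 0.138. It was kept without Dicer control 3, at a smaller fold change (1.19, adjusted p = 0.0107).

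The Igf1 counts could also be split by transcript. Of the 8 annotated Igf1 transcripts, 4 hold an internal exon of 52 bases (chr10:87915298-87915349) that the predominant Igf1-202 lacks and that changes the C-terminal E peptide of the precursor. RSEM assigned 0.989% to 2.09% of Igf1 counts to these transcripts in the Dgcr8 controls and 6.30% to 12.82% in Dgcr8 iKO. The shares were 3.61% to 5.82% in the Dicer controls and 5.48% to 6.41% in Dicer iKO, which overlap. In the crush experiment they were 14.9% to 21.9% uncrushed, 15.2% to 19.3% contralateral and 21.7% to 29.7% crushed. Igf1-203 carried most of this in Dgcr8 iKO, with 265 of the 355 counts, and had none in the crush experiment, where Igf1-206 and Igf1-208 carried most of it. The split was chosen after its values were seen and is given without a test, and transcript shares estimated from short reads are less certain than gene sums.

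Igf1r was lower in both lines. It was at 62.6, 81.8 and 58.4 CPM in the Dgcr8 controls and 32.6, 40.8 and 46.0 CPM in Dgcr8 iKO, and at 50.4, 56.0 and 70.9 CPM in the Dicer controls and 44.3, 32.5 and 33.7 CPM in Dicer iKO. Neither pair of groups overlapped. The log2 fold change was -0.77 in Dgcr8 iKO (SE 0.17, adjusted p = 0.00319) and -0.67 in Dicer iKO (SE 0.17, adjusted p = 0.0312). The call in Dicer iKO was lost without Dicer control 2 (adjusted p = 0.0816), Dicer control 3 (0.0508), Dicer iKO 2 (0.126) or Dicer iKO 3 (0.131), at log2 fold changes of -0.72 to -0.52.

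Igfbp5 was the gene whose direction separated the experiments. It had risen more than 5-fold at 3 dpc, but in Dgcr8 iKO it was lower, at 216, 378 and 233 CPM against 500.3, 541 and 597 CPM in the controls (log2 fold change -0.99, SE 0.21, adjusted p = 0.00272). In the Dicer line it was at 422, 280.4 and 226 CPM in iKO and 1079, 811 and 354 CPM in the controls, and Dicer control 3 lay within the range of the iKO libraries. This difference did not pass (-1.27, SE 0.40, adjusted p = 0.0597) with all libraries and did without Dicer control 3 (-1.60, adjusted p = 0.00496). The difference between the experiments was not tested, since kits, sampling and controls differ.

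Igfbp2 was almost absent from control nerves. It had 0.588, 0 and 0.104 CPM in the Dgcr8 controls and 6.82, 7.02 and 5.24 CPM in Dgcr8 iKO, or 6 counts against 177 in all. The ratio of summed counts per summed library total, without TMM, was 29.5 (95% exact interval 13.3 to 81.4, counting error only). The fitted log2 fold change was 4.68 (SE 0.56, adjusted p = 7.34e-05) for a gene that passed the filter through the iKO libraries. In the Dicer line it had 0, 0.134 and 0 CPM in the controls and 1.46, 2.96 and 1.25 CPM in iKO, or 1 count against 37 (ratio 41.7, interval 7.04 to 1691). It was not tested there. A single library at 0 allowed up to 0.387 to 0.421 CPM in the Dicer controls.

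Igfbp3 was the only binding protein that rose in both lines by the test, in which Igfbp2 had no value for the Dicer line. It was at 6.71, 6.97 and 10.8 CPM in the Dgcr8 controls and 52, 39.9 and 71.7 CPM in Dgcr8 iKO (log2 fold change 2.72, SE 0.25, adjusted p = 1.29e-05). In the Dicer controls it was at 5.02, 8.42 and 5.84 CPM, and in Dicer iKO at 32.1, 25.2 and 26.2 CPM (2.12, SE 0.22, adjusted p = 0.00214). The controls of both lines were close to each other and far below the iKO libraries, and no left-out library changed either call (2.05 in the Dicer line without Dicer control 3).

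Igfbp4, Igfbp6 and Igfbp7 had uneven Dicer controls. Igfbp4 was at 64.1, 71.8 and 72.7 CPM in the Dgcr8 controls and 244, 211 and 241 CPM in Dgcr8 iKO (log2 fold change 1.73, SE 0.13, adjusted p = 4.05e-06). In the Dicer line it was at 299, 222 and 90.6 CPM in the controls and 217, 266 and 323 CPM in iKO, which overlap (0.40, SE 0.38, adjusted p = 0.482). Igfbp7 was at 95.9, 106 and 113 CPM in the Dgcr8 controls and 259.9, 237 and 236 CPM in Dgcr8 iKO (1.21, SE 0.13, adjusted p = 3.13e-05). In the Dicer line it was at 212, 183 and 83.0 CPM in the controls and 166, 205 and 207 CPM in iKO (0.28, SE 0.31, adjusted p = 0.544). Without Dicer control 3 the log2 fold changes were 0.05 for Igfbp4 and -0.03 for Igfbp7. For both genes Dicer control 3 was the lowest library of its line, and the other Dicer controls lay within or above the range of the Dicer iKO libraries.

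Igfbp6 did not pass in either line. It was at 123, 139.8 and 208 CPM in the Dgcr8 controls and 255, 255 and 141 CPM in Dgcr8 iKO (log2 fold change 0.47, SE 0.24, adjusted p = 0.145), and it passed without Dgcr8 control 3 (0.71, adjusted p = 0.047) or without Dgcr8 iKO 3 (0.70, adjusted p = 0.0136). It was at 999, 698 and 231 CPM in the Dicer controls and 226, 364 and 364 CPM in Dicer iKO (-1.01, SE 0.47, adjusted p = 0.16), and it passed without Dicer control 3 (-1.42, adjusted p = 0.00558). The perineurial markers were also high in the Dicer controls, at 729 to 1483 CPM against 492 to 650 CPM in Dicer iKO. Of the 4 markers, 1 was lower by the test and 4 of 4 were without Dicer control 3. In the Dgcr8 line these markers summed to 553 to 884 CPM in the controls and 424 to 537 CPM in iKO, with 1 of 4 higher and 2 lower. The fitted Igfbp6 value went the other way there, without passing. A link of these sums to Igfbp6 was not tested.

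Whether the iKO effects differed between the lines was tested directly as the Dgcr8 effect minus the Dicer effect. None of the 8 genes passed, beside 0.0148% of 13552 genes, and 3 of the 8 had an unadjusted p under 0.05, beside 13.7% of all genes. These were Igfbp4 (difference 1.34 on the log2 scale, approximate 95% interval 0.49 to 2.18, adjusted p = 0.219), Igfbp6 (1.48, 0.34 to 2.63, adjusted p = 0.304) and Igfbp7 (0.94, 0.25 to 1.62, adjusted p = 0.281). Without Dicer control 3, Igf1 (1.43, adjusted p = 0.0433), Igfbp4 (1.69, adjusted p = 0.00414), Igfbp6 (1.89, adjusted p = 0.0252) and Igfbp7 (1.25, adjusted p = 0.00503) passed. The shares over all genes above belong to the fit with all libraries. The share in the fit without Dicer control 3 is not given, so these calls cannot be read as particular to the 8 genes. The difference was -0.09 for Igf1r, with an interval of -0.60 to 0.42. All intervals of these differences use a normal approximation, so they are narrower than the quasi-likelihood test implies.

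**Figure D3:**
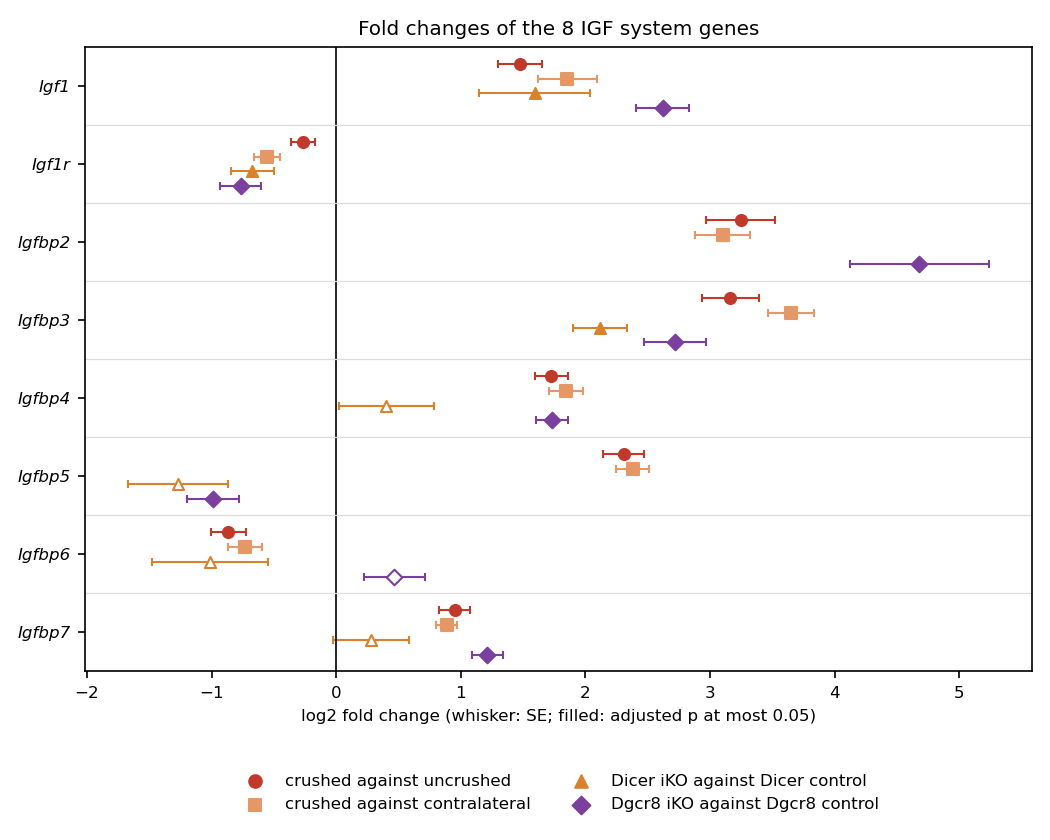
Log2 fold changes of the 8 genes in 4 comparisons. Points are fitted values from edgeR, whiskers are SEs, and filled points passed at an adjusted p of at most 0.05. Igfbp5 lay to the right of 0 after crush and to the left in both iKO lines, Igfbp3 lay to the right in all 4, and Igfbp2 was not tested in the Dicer line.

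Levels of different genes were compared per transcript length, as each gene's share of the summed TPM of the 8 genes within a library. Igfbp5 took 28.9% ± 3.91 (SD, n = 3) of the set in uncrushed and 46.5% ± 2.88 (n = 4) in crushed nerves, where every library had it first and without overlap with the next genes, Igfbp4 (18.2%) and Igfbp7 (17.8%), whose ranges overlapped. Igfbp7 (28%) could not be ordered against Igfbp5 in uncrushed nerves, since their ranges overlapped. Igfbp6 went from 17.0% ± 2.62 uncrushed to 3.14% ± 0.64 crushed.

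The iKO experiment had another order. Igfbp6 came first with 38.1% ± 5.14 in the Dgcr8 controls, 59.9% ± 5.70 in the Dicer controls and 42.7% ± 4.99 in Dicer iKO (n = 3 each), and in Dgcr8 iKO its 31.6% ± 7.43 overlapped with the 35.7% ± 2.25 of Igfbp7. Igfbp5 went from 21.5% ± 1.25 in the Dgcr8 controls to 6.48% ± 1.95 in Dgcr8 iKO. Igf1 made up 0.81% ± 0.14 of the set in the Dgcr8 controls and 3.90% ± 1.63 in Dgcr8 iKO, and Igfbp2 was last in all 7 groups. In crushed nerves the shares of Igf1r (0.85%) and Igfbp2 (0.82%) overlapped.

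**Figure D4:**
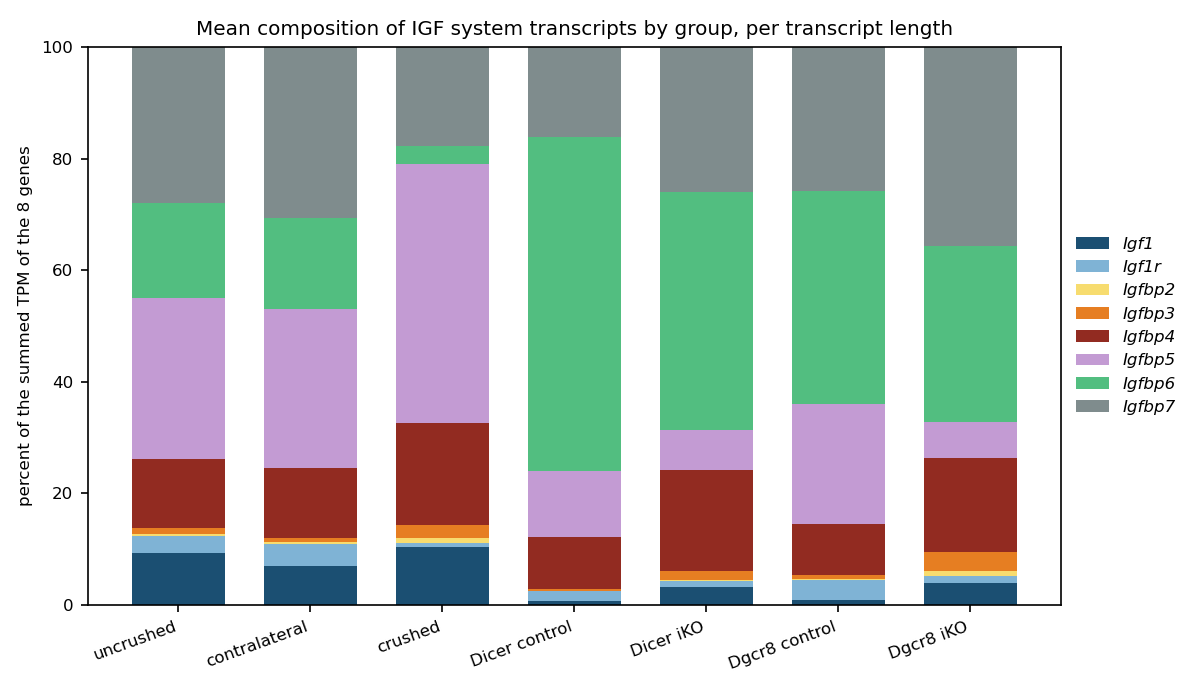
Mean share of each gene in the summed TPM of the 8 genes, in percent, for the 7 groups. Stacked bars start at 0 and sum to 100%. Igfbp5 filled 46.5% of the crushed bar, and Igfbp6 filled 31.6% to 59.9% of the iKO-experiment bars.

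The wider IGF pathway was followed with a list of 65 further genes. Against uncrushed nerves 28 of the 58 genes tested rose and 16 fell, and against contralateral nerves 25 rose and 19 fell. These counts stand beside 33.8% higher and 33.4% lower, and 33.5% and 32.9%, over all genes. In Dicer iKO 8 of 55 rose and 9 fell, beside 12.3% and 8.88% over all genes, and in Dgcr8 iKO 16 rose and 15 fell, beside 23.9% and 20.6%. The Dicer iKO counts ranged from 1 to 9 higher and from 1 to 11 lower when 1 library was left out. Of the 17 Dicer iKO calls only those of Ccnd1 and Foxo4 were kept in every such fit, and the others were lost without at least Dicer iKO 2. The medians over the list were 0.25, 0.10, -0.05 and -0.05 on the log2 scale, and in contralateral against uncrushed nerves none of 58 passed.

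**Figure D5:**
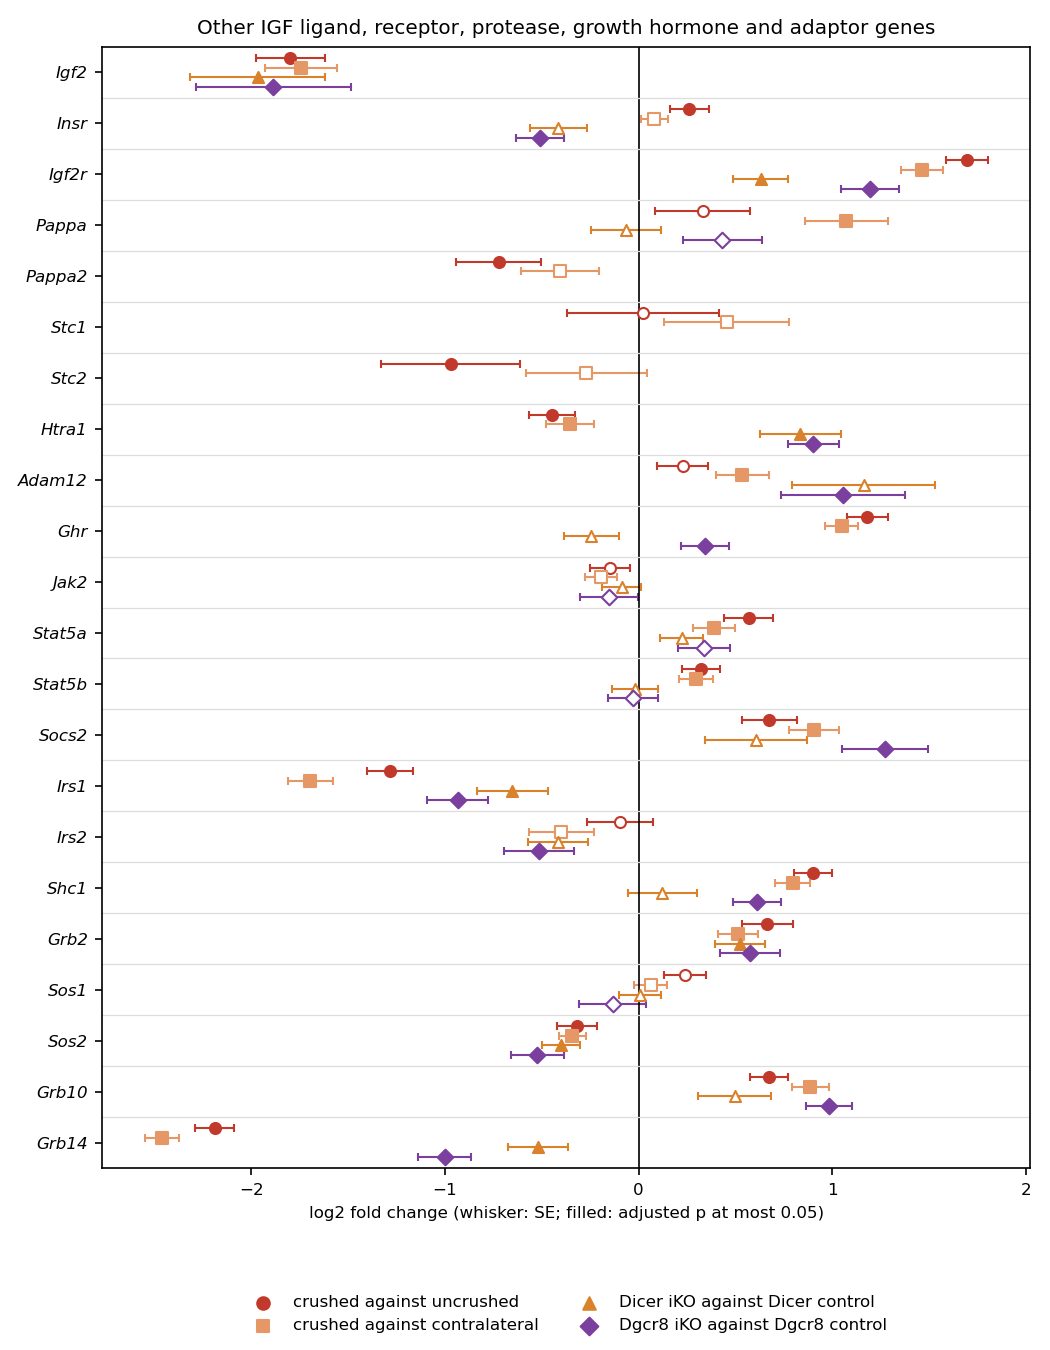
Log2 fold changes of the other ligands and receptors, the IGFBP proteases and their inhibitors, the growth hormone axis and the adaptors that were tested. Points are fitted values from edgeR, whiskers are SEs, and filled points passed at an adjusted p of at most 0.05. Igf2 lay to the left and Igf2r to the right of 0 in all 4 comparisons, and Htra1 lay on opposite sides in the experiments.

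Igf2, the second IGF, fell while Igf1 rose. It was at 36.1 to 51.0 CPM uncrushed, 31.5 to 55.2 CPM contralateral and 9.61 to 16.4 CPM crushed (log2 fold changes -1.80, adjusted p = 2.67e-06, and -1.74, adjusted p = 1.21e-06). In the iKO lines it was at 12.3 to 16.8 CPM in the Dicer controls and 2.12 to 5.85 CPM in Dicer iKO (-1.97, adjusted p = 0.0096), and at 17.7 to 32.0 CPM in the Dgcr8 controls and 2.0 to 9.30 CPM in Dgcr8 iKO (-1.89, adjusted p = 0.00287). The call of Igf2 in Dicer iKO was lost without Dicer iKO 2 (adjusted p = 0.0543). Igf2r, the clearance receptor for IGF2, rose in the same comparisons, by log2 fold changes of 1.70, 1.46, 0.63 and 1.2, the Dicer iKO call being lost without Dicer control 2, Dicer iKO 2 or Dicer iKO 3. The insulin receptor Insr rose slightly against uncrushed (0.26, adjusted p = 0.0371, lost in 5 of 7 fits without a library) and fell in Dgcr8 iKO (-0.51, adjusted p = 0.00609), and it did not pass in the other comparisons. Ins1, Ins2, Insrr, Igfals, Igfbp1 and Igfbpl1 were too low to be tested.

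Of the genes that act on binding proteins, Htra1, a serine protease that cleaves IGFBP5, fell after crush (-0.45, adjusted p = 0.00542, and -0.35, adjusted p = 0.0198) and rose in Dicer iKO (0.83, adjusted p = 0.0284) and Dgcr8 iKO (0.90, adjusted p = 0.000256). The Dicer iKO call of Htra1 was lost without Dicer control 2, Dicer iKO 2 or Dicer iKO 3, and that against contralateral without contralateral 1 or contralateral 4. Adam12 rose against contralateral nerves (0.53) and in Dgcr8 iKO (1.06, lost without Dgcr8 control 3 or Dgcr8 iKO 3). Pappa, the IGFBP4 protease, rose only against contralateral nerves among the 5 comparisons (1.07, adjusted p = 0.000484), and its difference from uncrushed was 0.33 (adjusted p = 0.247). Pappa2 (-0.72) and the PAPP-A inhibitor Stc2 (-0.97) fell against uncrushed, on at most 47 and 21 counts per library, and the calls were lost in 1 and 4 of 7 fits without a library. Stc1 did not pass in the crush comparisons, and these 3 genes were too low to be tested in the iKO lines.

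The growth hormone axis drives Igf1 transcription in liver. In crushed nerves 4 of its 5 genes rose against either control, beside 33.8% and 33.5% of all genes tested. The receptor Ghr was at 1.18 and 1.05, the feedback inhibitor Socs2 at 0.67 and 0.91, Stat5a at 0.57 and 0.39, and Stat5b at 0.32 and 0.29 on the log2 scale. In Dgcr8 iKO Ghr (0.34, adjusted p = 0.0433, lost in 5 of 6 fits without a library) and Socs2 (1.27, adjusted p = 0.000826) rose, in Dicer iKO none of the 5 passed, and Jak2 passed in no comparison.

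Among the adaptors, Irs1, the substrate that links the receptor to PI3K, fell in all 4 comparisons, by log2 fold changes of -1.28, -1.69, -0.65 and -0.93. Grb14, an inhibitor of receptor kinase activity, fell in all 4 (-2.19, -2.46, -0.52 and -1.0), and Sos2 did so by smaller amounts (-0.32, -0.34, -0.40 and -0.52). Grb2 rose in all 4 (0.66, 0.51, 0.52 and 0.57). In Dicer iKO the calls of Grb2 and Sos2 were lost without Dicer control 2, Dicer iKO 2 or Dicer iKO 3, that of Irs1 also without Dicer control 3, and that of Grb14 in 5 of 6 fits. The call of Sos2 against uncrushed was lost without uncrushed 2 or uncrushed 3. Grb10 and Shc1 rose in crushed nerves and Dgcr8 iKO and did not pass in Dicer iKO, where Grb10 was at 0.50 (adjusted p = 0.101). Irs2 passed in Dgcr8 iKO alone (-0.52, lost in 4 of 6 fits), Sos1 passed in none of them, and Irs4 was not tested in these 4 comparisons.

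In the PI3K, AKT and mTOR branch of 24 genes, 14 rose and 3 fell against uncrushed, 11 rose and 7 fell against contralateral, 4 rose and 2 fell in Dicer iKO, and 7 rose and 3 fell in Dgcr8 iKO. In the ERK branch of 8 genes, the counts were 4 and 3, 3 and 4, 0 and 2, and 0 and 4. Over all genes tested, 33.8% were higher and 33.4% lower, then 33.5% and 32.9%, 12.3% and 8.88%, and 23.9% and 20.6%. The branches were not tested as sets. Of the 4 nuclear targets, Ccnd1, which encodes cyclin D1, had the highest fold change of the list in every one of these comparisons (2.69, 2.67, 1.88 and 2.89). The next highest were Eif4ebp1 against uncrushed (1.82), Pik3cg against contralateral (2.03) and in Dicer iKO (1.07, lost in 4 of 6 fits), and Pik3r3 in Dgcr8 iKO (1.65). The lowest were Pik3r1, the regulatory subunit of PI3K (-2.35 and -2.34), and Grb14 after crush, and Igf2 and Foxo4 in Dicer iKO (Foxo4 -0.95) and Dgcr8 iKO (-1.13).

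Genes with a pattern like each member were sought over the 23 libraries by the root mean square difference in log2(CPM + 1), after centring each gene within its experiment. The nearest gene was Psd4 for Igf1 (0.27), Git1 for Igf1r (0.11), Mcam for Igfbp2 (0.22), Hmmr for Igfbp3 (0.32), Rab3il1 for Igfbp4 (0.18), F13a1 for Igfbp5 (0.36), Lmo7 for Igfbp6 (0.26) and Kitl for Igfbp7 (0.19). The next were Hacd4 and Pon3 for Igf1, Gng7 for Igf1r, Gpr137c and Nkd2 for Igfbp2, Myof and Rrm2 for Igfbp3, Dse and Cers6 for Igfbp4, Lyve1 and Vasn for Igfbp5, Nebl and Dact1 for Igfbp6, and Lasp1 and Lima1 for Igfbp7. The median difference over the genes compared ran from 0.45 for Igf1r to 1.36 for Igfbp3, so the values cannot be ranked between members. Igfbp2 itself was below the level filter set for the genes compared. The measure describes likeness in the same libraries and carries no test.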

How the data were processed

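RNA of whole sciatic nerves had been sequenced in 23 libraries. Per the labels, crush libraries came from a Clontech SMARTer Stranded Pico kit and iKO libraries from Illumina TruSeq stranded RNA with Ribo-Zero, whereas the study's methods give TruSeq for both. Per the submitters' processing notes, the authors trimmed reads with Trimmomatic and quantified transcripts with RSEM on GRCm38. They deposited expected counts and TPM per transcript for each library, with FPKM and posterior columns that were not used here. In the crush libraries 1 ribosomal RNA gene took 61.4% to 71.8% of the TPM, so TPM was compared as shares within the 8 genes.

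The deposited expected counts of all transcripts of a gene were added up and the sums rounded, and symbols and positions came from GENCODE M21. Each comparison was fitted on its 2 groups with edgeR 4.0.16 in R 4.3.3 (filterByExpr with a minimum count of 10, TMM, glmQLFit and glmQLFTest, Benjamini-Hochberg adjustment over all genes tested), and the line difference on the 12 iKO libraries. Genes passed at an adjusted p of at most 0.05. CPM used TMM factors over all libraries of an experiment, so ratios of mean CPM can differ from fitted fold changes. A library floor of 3 counts corresponded to 0.234 to 0.536 CPM. The script was first tested on simulated counts.

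The members, gene lists and tests were chosen with earlier results of these data known. The text names all 8 members, list genes by branch, the 2 highest and 2 lowest list genes that passed and the 3 most alike genes of each member, except for items not reported here. Deviations of samples with the same replicate number had mean correlations of -0.0545 to 0.0534 in the comparisons. The highest, for crushed against contralateral, came from 4 pairs (-0.079 to 0.157). Pairs with other numbers there had a mean of -0.0178 (-0.211 to 0.108). These overlapping values are too few to show whether the numbers mark pairs, and the numbers were not used as pairs. The third uncrushed library is numbered 3 in one label and 4 in another. Contralateral nerves came from crushed mice, but no label says which, so crushed and contralateral libraries were treated as independent. No pair of libraries agreed within sampling noise. Alternatives were DESeq2 1.42.0, limma 3.58.1 on log2(TPM + 1), other filters and scaling, 1 fit over all groups, a replicate block and leaving out each library. Normalising to protein-coding genes, shares of TPM, the Igf1 transcript split and leaving out libraries for each list gene and marker were added after seeing the data.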

Additional observations from a re-analysis of the deposited data

Results flagged for a closer look

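In crushed 1, Igf1 was at 72.6 CPM, apart from the other crushed libraries at 121 to 126 CPM by more than Dixon's 95% critical value for 4 samples. It was 1 of 16 combinations of gene and group examined, and chance alone gives about 1 in 20. Without this library Igf1 stayed higher in crushed nerves against either control.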

How the results depend on the processing

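For single members, 750 of 787 repeated values kept their direction and their side of the threshold. Of the others 1 turned, Igf1r against uncrushed with limma on log2(TPM + 1) (0.25 in place of -0.27), a setting that moved the median of all genes from -0.03 to 0.24. Against uncrushed, the 2 members lower became 1 with no filter, with DESeq2, with the replicate block and at an adjusted p of 0.01, and 0 with limma on log2(TPM + 1). Leaving out libraries gave 1 to 2. The 16 list genes lower became 10 with no filter and 3 with that limma setting. Fitting with no filter also moved the median of all genes against uncrushed, from -0.03 to -0.385. Against contralateral, limma gave 0 members and 10 list genes lower (2 and 19). In Dicer iKO, members lower (1) were 2 with no filter, DESeq2 or 1 fit over all groups, 0 with limma on log2(TPM + 1) or at 0.01, and 0 to 2 without single libraries. Members higher (2) were 1 with the replicate block or at 0.01, and 1 to 3 without single libraries. With the block, Igf1 (adjusted p = 0.0881) and Igf1r (0.0928) were lost and Igfbp5 passed (-1.17, 0.0422). List genes higher in Dicer iKO (8) were 1 with the block and at 0.01, and 1 to 9 without single libraries, with 1 without Dicer control 2, Dicer iKO 2 or Dicer iKO 3. List genes lower (9) were 4 with limma on log2(TPM + 1), 5 on TPM scaled by TMM, 2 with the block and at 0.01, and 1 to 11 without single libraries, with 1 without Dicer iKO 2 and 2 without Dicer control 2 or Dicer iKO 3. In Dgcr8 iKO 15 list genes lower became 9 with limma. For the difference between lines, 0 members passed, and 0 to 4 without single libraries, 4 being without Dicer control 3. The causes were not tested. Mean CPM shares put Igfbp5 first in all groups except Dicer iKO, whereas mean TPM shares did so in crushed and, with overlap, uncrushed nerves. The limits are 3 or 4 libraries a group, whole nerve, near-zero counts of Igfbp2 in controls and a kit that differs between the experiments.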

Other observations

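Markers of other cell types that the nerve holds were counted in the same fits, and none of them passed in contralateral against uncrushed nerves. The counts below stand beside 33.8% higher and 33.4% lower of all genes against uncrushed, and 33.5% and 32.9% against contralateral nerves. In Dicer iKO these shares were 12.3% and 8.88%, and in Dgcr8 iKO 23.9% and 20.6%. Counts near these shares do not set a cell type apart. Of 8 endothelial markers, 5 rose and 1 fell against uncrushed, 4 rose and 2 fell against contralateral, 1 fell in Dicer iKO and 4 fell in Dgcr8 iKO. Of 5 pericyte and smooth muscle markers, 4 rose and 1 fell against uncrushed, 3 rose and 1 fell against contralateral, none passed in Dicer iKO and 1 rose in Dgcr8 iKO. Of 4 perineurial markers, 2 of 3 tested fell against either control, and in Dgcr8 iKO 1 of 4 rose and 2 fell. Adipocyte markers summed to 0 to 70.6 CPM, and Plin1 and Lep were at 0 in all Dicer iKO libraries. Skeletal muscle markers summed to 0.932 to 17.9 CPM, with the highest value in a Dicer control. Only 1 adipocyte marker was tested after crush and fell against contralateral nerves, and the 1 muscle marker tested in the Dicer line fell in iKO.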
